A study of Mus musculus with 2 samples.

Results

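Tip-like tumor endothelial cells (ECs) were taken from the tumor EC (TEC) library as the cells with the highest summed level of Apln, Pgf, Adm and Angpt2. All 4 genes encode secreted factors linked to sprouting vessels. Of the 704 barcodes of the library, 230 passed the limits on genes, mitochondrial UMIs, UMIs of other cell types, depth and endothelial UMIs, and were ranked by this sum. The top 25% were 57 cells, and these are called tip-like cells. The lowest 50% were 115 cells, called low-ranked cells, and the 58 cells between them are called intermediate cells. Both deposited libraries together held 9751 barcodes.

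Endothelial tip cells lead a growing vessel sprout. They extend filopodia, follow guidance cues, degrade and deposit matrix, and are held apart from the trailing stalk cells by Notch signaling. In tumors, cells of this kind line immature vessels, and low oxygen is a known inducer of Adm, Angpt2, Apln and of genes for glucose uptake and glycolysis.

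The TEC library held CD45-/CD31+ cells that were sorted from pooled mammary tumors, grown in place from E0771 cells, a mouse mammary carcinoma line. The labels of this library give neither the strain, the age nor a treatment. The second library held CD45-/CD31+ cells from pooled mammary glands of C57BL/6 mice that were 6 to 8 weeks old (normal ECs, NECs). Its title and the series design name normal glands, whereas its labels for cell type and tissue name TECs and E0771, so it was read as normal and is given here only as background. Each condition had 1 library, and cells of a library are not replicates. No test was therefore made, and every 95% interval covers counting error only. In each comparison of TECs with NECs, tissue and library cannot be told apart.

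The TEC table listed 15644 genes, with 510 to 183550 UMIs per barcode (median 14106.5). Tip-like cells had a median of 18610 UMIs (2172 to 48035), against 19341.5 in intermediate and 17649 in low-ranked cells. The median share of mitochondrial UMIs was 2.998% in tip-like, 3.48% in intermediate and 3.84% in low-ranked cells. The 3651 NECs that passed the same limits were far shallower, with a median of 3532 UMIs. Levels are therefore given as sums over cells in counts per 1000000 UMIs (CPM), and shares of cells with a UMI are also given in expectation for 2000 UMIs in every cell. The libraries shared 3 barcode sequences, of which 1 belonged to a tip-like cell. A list of 21 immediate early and heat shock genes summed to 20370 CPM in NECs, 6100 CPM in tip-like and 5873 CPM in low-ranked cells. The part of this difference in the comparisons with NECs was not tested.

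The sum that chose the cells ran from 2396 to 10156 CPM in tip-like cells (median 3792), from 766 to 2340 CPM in intermediate cells and from 0 to 755 CPM in low-ranked cells, 31 of which were at 0. There was no gap at the border. The last 3 cells inside had 2396, 2415 and 2497 CPM, and the first 3 outside had 2340, 2311 and 2249 CPM. Summed over the tip-like cells, Apln was at 1419 CPM, Pgf at 1369 CPM, Angpt2 at 1254 CPM and Adm at 867 CPM. In low-ranked cells the same genes were at 142, 14.7, 143 and 21.2 CPM. All 4 genes had a UMI in 40 of the 57 cells, 12 cells had 3 of them, 3 cells had 2 and 2 cells had only 1. Apln contributed most in 20 cells, Pgf in 18, Angpt2 in 13 and Adm in 6. These values describe the choice of cells, and the 4 genes were left out of what follows. Among NECs, 4 of 3651 cells (0.110%, Clopper-Pearson 95% interval 0.0299 to 0.280%) reached the lowest sum of a tip-like cell.

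The cells were endothelial by other markers than those of the rule. Egfl7 was at 2418 CPM with a UMI in 57 of 57 tip-like cells, and Emcn (868 CPM), Esam (953 CPM) and Cldn5 (1067 CPM) were also abundant. Of 16 tested endothelial identity genes, none was 2-fold higher in tip-like than in low-ranked cells and 1, Clec14a, was 2-fold lower. Clec14a, a membrane glycoprotein of sprouting endothelium, was at 64.6 against 150 CPM (log2 ratio -1.22, exact conditional interval -1.60 to -0.85). It was past 2-fold in 12 of 16 alternatives in processing. Of the 16 genes 11 had a ratio below 0, with a median log2 ratio of -0.265 (0.03 for all genes compared). The list summed to 9230 against 8989 CPM (0.04, 0.004 to 0.07). In tip-like cells Prox1 and Ccl21a of lymphatic ECs were at 0, as were Krt18, Krt19 and Cdh1 of epithelium, Pdgfrb of pericytes, Dcn and Lum of fibroblasts, Csf1r and Adgre1 of macrophages, and Cd3e of T cells. The 10 lymphocyte genes summed to 0 CPM in tip-like and 2.17 CPM in low-ranked cells, and the 10 fibroblast genes to 6.19 and 8.67 CPM. The 8 lymphatic genes summed to 135 against 49.4 CPM, the 10 pericyte genes to 62.8 against 50.7 CPM, the 14 macrophage and neutrophil genes to 107 against 75.4 CPM and the epithelial genes to 169 against 2.17 CPM. In the last of these nearly all UMIs were of 1 gene. Cldn4, an epithelial claudin, was at 165 CPM in 4 tip-like cells, with 55.9% of its UMIs in 1 cell, and had no UMI in the other ranked cells. Lyve1 was at 75.2 CPM in 5 tip-like cells (57.6% of the UMIs in 1) and Spp1 at 78.7 CPM in 10 (58.4% in 1). The part of these few cells in the comparisons below was not tested, except where a value without the richest cell is given.

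In tip-like over low-ranked cells, 5758 genes at 20 CPM or more over all ranked cells were compared. Their log2 ratios had a median of 0.03 and quartiles of -0.22 and 0.30. At 2-fold or more, 199 genes (3.46%) were higher and 159 (2.76%) were lower in tip-like cells. Intermediate cells had a level between those of the other groups for 182 of the 199 and 136 of the 159 genes. These genes were picked by the difference between the outer groups, which favors a level between them. The share over all 5758 genes was not counted, so no gradient is read from these counts. The genes that led the higher side were Egln3, Bnip3, Mfap3l, Nupr1 and Ankrd37, followed by Ctgf, Gm37800, Fn1, Bmp2, Thbs1, Fhl2, Gfod1, 8430408G22Rik, Tnc and Cxcr4. Those that led the lower side were Slco2a1, Car4, Selp, Aplnr and Fam13c, followed by Lrg1, Grrp1, Icam1, Tcf19, Palm, Serpina3g, Csf2rb2, Glul, Sema3g and Hey1.

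**Figure D1:**
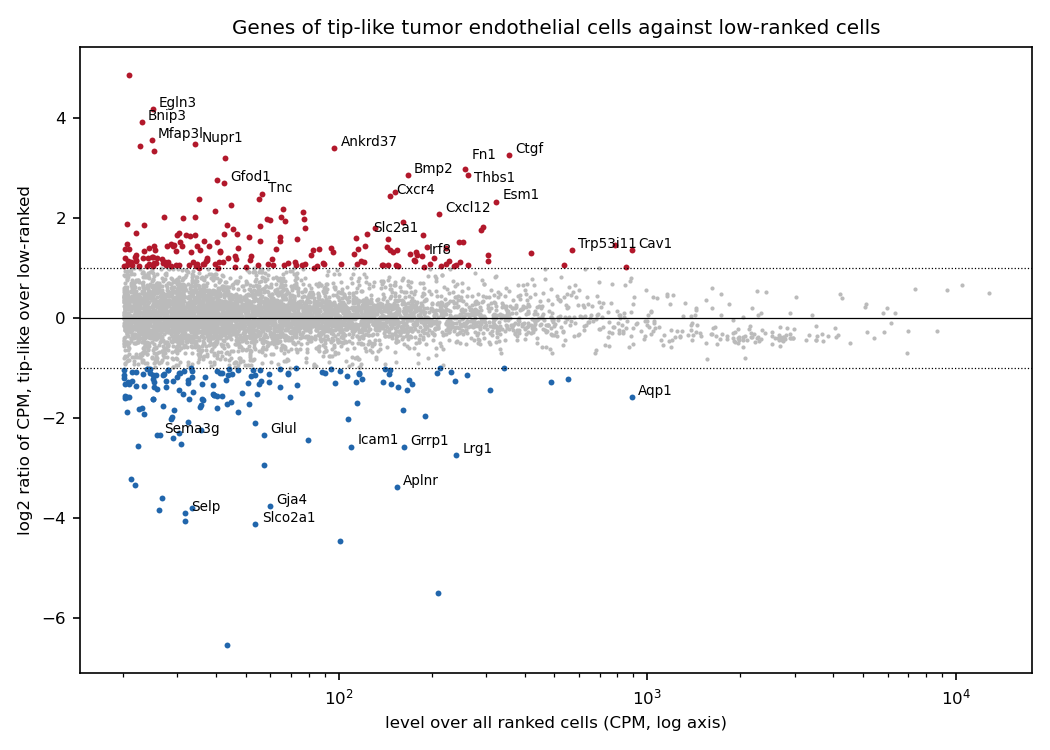
Log2 ratio of CPM in tip-like over low-ranked TECs (vertical axis) against the level over all ranked cells (horizontal log axis, CPM) for each gene compared that had UMIs in both groups. Dotted lines mark 2-fold, red points lie above and blue points below them, and leading and listed genes are named: Egln3 (4.18) and Bnip3 (3.93) lie high among the weakly expressed genes and Ctgf (3.27) among the stronger ones, while Aplnr (-3.38), Selp (-3.91) and Slco2a1 (-4.12) lie low.

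Tip markers other than the ranking genes were higher as a group, but not all of them. Of 28 listed genes 25 could be compared, 18 with a log2 ratio above 0 and 7 at 2-fold or more higher, against 1 lower, with a median of 0.62 (0.03 for all genes). The 7 were Cxcr4, Esm1, Pxdn, Trp53i11, Pdgfb, Nid2 and Rgcc, of which Nid2 stayed past 2-fold in 12 and Rgcc in 6 of 16 alternatives in processing. Summed, the list was at 13119 CPM in tip-like, 10808 CPM in intermediate and 9797 CPM in low-ranked cells, a log2 ratio of 0.42 (0.39 to 0.45). The sum per cell had a median of 12778 CPM in tip-like and 8644 CPM in low-ranked cells, and 46 of the 57 tip-like cells lay above the latter, so the groups overlapped. Ranked without Angpt2, the summed ratio was 0.21.

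Esm1 encodes endocan, a proteoglycan secreted at the sprouting front (GRCm38, chromosome 13, 113209659 to 113218098). It ranged from 0 to 6395 CPM (median 265) in tip-like cells, with a UMI in 40 of 57, and from 0 to 1948 CPM (median 0) in low-ranked cells, with a UMI in 40 of 115. Its sum was 706 CPM in tip-like, 313 CPM in intermediate and 140 CPM in low-ranked cells, with a log2 ratio of 2.33 (2.14 to 2.52). NECs stood at 313 CPM. Cxcr4 encodes the receptor for Cxcl12 that guides migrating cells (chromosome 1, 128588199 to 128592293). It had a median of 179 CPM and a maximum of 2302 CPM in tip-like cells, against 0 and 815 CPM in low-ranked cells. Its sum was 342 against 62.9 CPM (log2 ratio 2.45, 2.17 to 2.73), and 10.97 CPM in NECs.

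Pdgfb, the factor by which sprouts recruit pericytes, was at 500 against 210 CPM (log2 ratio 1.25, 1.07 to 1.43). Nid2, a basement membrane nidogen, was at 359 against 169 CPM (1.09, 0.88 to 1.29), and Pxdn, a peroxidase that crosslinks collagen IV, at 335 against 126 CPM (1.42, 1.19 to 1.64). Trp53i11 had a UMI in every tip-like cell, with 82.0 to 2346 CPM, and summed to 924 against 361 CPM (1.35, 1.22 to 1.49). Each of these 4 genes had UMIs in most cells of both groups. Some widely used tip markers were not past 2-fold higher, and of those given next only Dll4 was higher beyond counting error. Kdr, the main VEGF receptor, was at 387 against 460 CPM (-0.25, -0.41 to -0.09), and Nrp1, its co-receptor, at 222 against 210 CPM (0.08, -0.14 to 0.30). Dll4, the Notch ligand of tip cells, was at 289 against 188 CPM (0.62, 0.41 to 0.83). Plvap, the diaphragm protein of fenestrae, was lower in tip-like cells, at 1037 against 1831 CPM (-0.82, -0.92 to -0.73), as was Ramp3, at 31.0 against 68.9 CPM (-1.15, -1.73 to -0.62), past 2-fold in 9 of 16 alternatives.

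**Figure D2:**
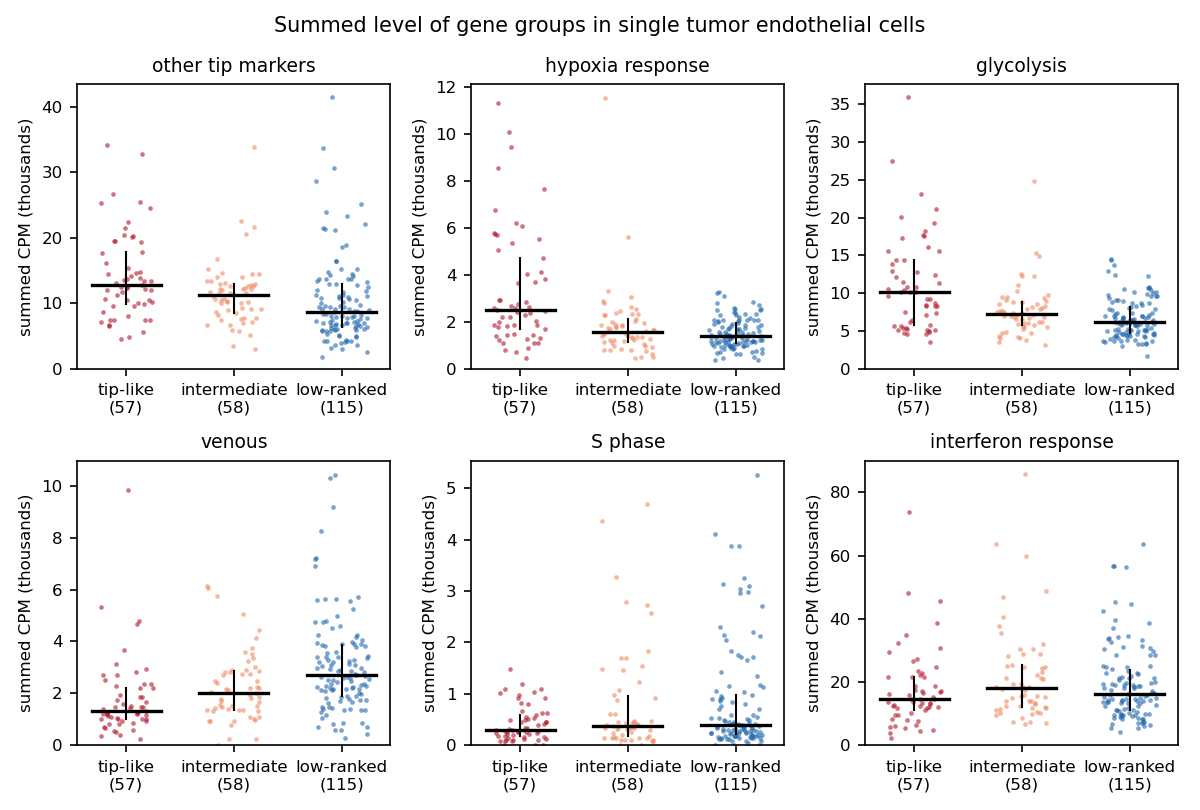
Summed CPM (linear axes from 0) of 6 gene lists in each tip-like (57), intermediate (58) and low-ranked (115) TEC. Points are cells, thick lines medians and thin lines the range between quartiles: the median of the hypoxia list is 2503 CPM in tip-like and 1386 CPM in low-ranked cells and that of the venous list 1332 and 2702 CPM, with overlap between groups in every panel.

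The hypoxia response list was the list with the largest excess in tip-like cells among those with at least 6 genes compared. Adm, Angpt2 and Apln, by which the cells were ranked, are themselves induced by low oxygen. The part of this choice in the excess was not tested. Of its 18 genes that could be compared, 17 had a ratio above 0, 9 were at 2-fold or more higher and 1 lower, with a median log2 ratio of 1.01. The list summed to 3275 CPM in tip-like, 1636 CPM in intermediate and 1528 CPM in low-ranked cells, a log2 ratio of 1.10 (1.03 to 1.17). NECs were at 1746 CPM, in a library that cannot be told apart from its tissue. In single cells the list ran from 460 to 11314 CPM in tip-like and from 342 to 3245 CPM in low-ranked cells, and 37 of 57 tip-like cells exceeded the upper quartile of the latter (1920 CPM).

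Egln3 encodes a prolyl hydroxylase that marks hypoxia-inducible factors (HIFs) for degradation and is itself a HIF target (chromosome 12, 54178981 to 54203860). It was at 78.7 CPM in tip-like, 12.9 CPM in intermediate, 4.33 CPM in low-ranked cells and 3.70 CPM in NECs. A UMI was seen in 25 of 57 tip-like and 6 of 115 low-ranked cells, and the log2 ratio was 4.18 (3.24 to 5.29). A single tip-like cell held 31.5% of its UMIs, and without this cell the ratio was 3.67. Bnip3, a mitochondrial protein of mitophagy (chromosome 7, 138890836 to 138909519), was at 72.5 against 4.77 CPM, with a UMI in 26 and 8 cells (3.93, 3.01 to 4.98). Ankrd37 (chromosome 8, 45996902 to 46005707) was at 278 against 26.4 CPM, with a UMI in 43 and 30 cells (3.39, 2.99 to 3.81). Of these 3 genes at least 2 were seen together in 33 of the 57 tip-like cells, 11 of the 58 intermediate and 4 of the 115 low-ranked cells, while 11 tip-like cells had none.

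Other hypoxia genes at 2-fold or more included Ero1l, an oxidase of protein folding (109 against 37.3 CPM, 1.55), the collagen prolyl hydroxylase subunit P4ha2 (1.52), Fam162a (1.12), Egln1 (1.05) and Ndrg1 (1.05). Egln1 stayed past 2-fold in 8 and Ndrg1 in 6 of 16 alternatives. Ddit4, which restrains mTORC1, went the other way, at 18.6 against 55.1 CPM (-1.57, -2.31 to -0.89). Vegfa itself was near the floor, with 4.42 CPM on UMIs in 4 tip-like cells and 0.433 CPM in 1 low-ranked cell, and was not compared.

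HIFs bind DNA at a core of ACGTG or GCGTG. The 250 bases upstream of the start are printed for the 3 leading hypoxia genes and for the glucose and lactate transporters Slc2a1 and Slc16a3, since these 5 genes lead the hypoxia and glycolysis lists. Sequences are from RefSeq (GRCm38.p6), written 5′ to 3′ on the strand of the gene, and capitals mark each core on either strand, overlapping cores included. The RefSeq start lies inside the GENCODE span of the gene for Bnip3, Ankrd37, Slc2a1 and Slc16a3, and just outside it for Egln3.
Egln3 (chr12:54203875-54204124, minus strand): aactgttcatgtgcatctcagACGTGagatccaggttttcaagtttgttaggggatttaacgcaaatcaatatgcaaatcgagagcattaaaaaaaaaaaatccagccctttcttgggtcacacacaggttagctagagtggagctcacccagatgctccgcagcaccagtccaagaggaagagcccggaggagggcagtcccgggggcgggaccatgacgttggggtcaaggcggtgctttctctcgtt
Bnip3 (chr7:138909507-138909756, minus strand): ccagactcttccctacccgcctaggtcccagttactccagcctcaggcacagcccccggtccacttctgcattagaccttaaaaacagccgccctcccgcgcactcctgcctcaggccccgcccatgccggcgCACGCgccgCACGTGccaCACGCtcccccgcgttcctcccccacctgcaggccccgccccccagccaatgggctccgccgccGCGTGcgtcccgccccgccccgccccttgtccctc
Ankrd37 (chr8:45999851-46000100, minus strand): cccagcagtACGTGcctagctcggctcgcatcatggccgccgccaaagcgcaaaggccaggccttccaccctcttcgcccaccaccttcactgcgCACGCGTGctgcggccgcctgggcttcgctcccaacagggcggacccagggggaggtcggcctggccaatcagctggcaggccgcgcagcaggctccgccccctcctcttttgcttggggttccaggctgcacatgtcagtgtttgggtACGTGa
Slc2a1 (chr4:119108495-119108744, plus strand): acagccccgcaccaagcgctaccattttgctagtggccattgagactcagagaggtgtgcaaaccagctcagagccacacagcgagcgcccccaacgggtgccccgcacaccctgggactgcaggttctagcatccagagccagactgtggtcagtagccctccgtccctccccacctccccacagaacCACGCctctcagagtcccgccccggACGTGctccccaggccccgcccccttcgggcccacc
Slc16a3 (chr11:120948817-120949066, plus strand): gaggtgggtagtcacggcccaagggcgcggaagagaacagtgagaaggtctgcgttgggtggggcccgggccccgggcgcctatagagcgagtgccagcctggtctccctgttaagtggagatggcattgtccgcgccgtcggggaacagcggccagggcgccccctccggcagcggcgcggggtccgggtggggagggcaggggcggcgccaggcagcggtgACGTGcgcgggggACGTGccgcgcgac
The Egln3 window held 1 core, Bnip3 5, Ankrd37 4 and Slc2a1 and Slc16a3 2 each. In windows from 250 bases before to 50 after the start, a core was present in 14 of 15 promoters (93.3%) of the hypoxia genes compared, of which 13 of 18 matched a RefSeq symbol, and in 18 of 23 (78.3%) of the glycolysis genes. It was present in 43.8% of all 32851 promoters and in 64.7% of those of the 5758 genes compared. Among the 199 higher genes the share was 59.8% and among the 159 lower genes 52.8%, both below that of all genes compared. The hypoxia promoters were also rich in G and C, with a median of 69.0% against 61.3% for the genes compared. The part of base composition in these shares was not tested. The shares of the hypoxia and glycolysis lists cover all their genes compared, whatever their ratio. They describe how the lists were made and are not a result of these cells.

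Glycolysis genes were higher throughout. All 15 that could be compared had ratios above 0 and 6 were at 2-fold or more, with a median log2 ratio of 0.77. The list summed to 11441 CPM in tip-like, 7898 CPM in intermediate and 7141 CPM in low-ranked cells (0.68, 0.65 to 0.71), and to 2459 CPM in NECs, below all groups of TECs. Slc2a1, the glucose transporter Glut1, was at 252 against 78.9 CPM, with a UMI in 44 of 57 and 66 of 115 cells (1.68, 1.40 to 1.95). Slc16a3, which exports lactate, was at 171 against 49.0 CPM (1.80, 1.46 to 2.15). Between them in the pathway, Pfkl (1.08), Pfkfb3 (1.15), Tpi1 (1.30) and Pgk1 (1.07) were past 2-fold, whereas the abundant Gapdh (3090 against 2145 CPM, 0.53), Pkm (0.60) and Ldha (0.31) were not. Ranges over single cells were made for Slc2a1, Slc16a3, Tpi1 and Pgk1, and they overlapped between tip-like and low-ranked cells. Slc2a1 was at 0 to 1578 CPM in tip-like and 0 to 352 CPM in low-ranked cells.

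**Figure D3:**
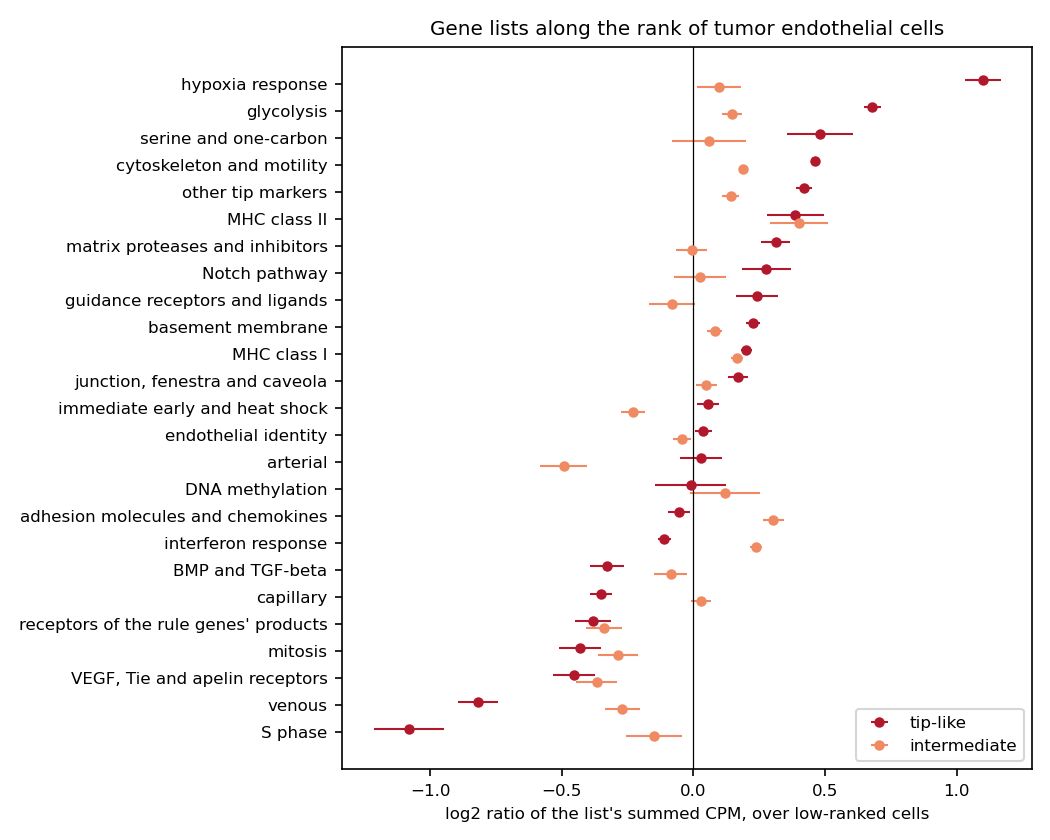
Log2 ratio of the summed CPM of 25 gene lists, markers of other cell types left out, in tip-like (red) and intermediate (orange) TECs over low-ranked TECs, with 95% exact conditional intervals for counting error. The hypoxia response (1.10) and glycolysis (0.68) lie highest and the venous (-0.82) and S phase (-1.08) lists lowest of these in tip-like cells, and intermediate cells lie nearer to 0 for these 4 lists.

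Matricellular and matrix genes were among the leaders. Ctgf, a secreted matricellular protein, was the most abundant of the 15 leading higher genes, at 976 against 101 CPM (3.27, 3.06 to 3.48). It had a median of 364 CPM in tip-like and 0 in low-ranked cells and a UMI in 50 of 57 and 39 of 115 cells. Thbs1, an inhibitor of angiogenesis, was at 604 against 83.7 CPM (2.85, 2.62 to 3.09), also with a UMI in 50 tip-like cells. Fn1, fibronectin, was at 695 against 88.0 CPM (2.98, 2.76 to 3.21), with 23.8% of its UMIs in 1 cell and 2.64 without it. Tnc, tenascin C, was at 124 against 22.1 CPM (2.49, 2.01 to 2.98). NECs had 22.3 CPM of Ctgf, 19.99 CPM of Thbs1, 77.6 CPM of Fn1 and 6.62 CPM of Tnc. Low-ranked cells had higher levels than this other library for these except Fn1, where the levels were close.

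The basement membrane as a whole differed little. Of 16 genes 3 were at 2-fold or more higher (Fn1 and the laminin chains Lama4, 1.12, and Lamb1, 1.05) and 1 lower (Bgn, -2.03, with 10.6 CPM in tip-like cells), and the median log2 ratio was 0.20. Col4a1 was at 2329 against 2245 CPM (0.05, -0.02 to 0.12) and Sparc at 5988 against 5571 CPM (0.10, 0.06 to 0.15). Of 16 matrix proteases and inhibitors, Plau, the urokinase activator, was higher (60.2 against 19.1 CPM, 1.66, 1.09 to 2.24) and Adam15 lower (78.7 against 206 CPM, -1.39, -1.73 to -1.06). Mmp14 was at 284 against 224 CPM (0.34, 0.14 to 0.55). Of 25 genes of the cytoskeleton and motility 24 had a ratio above 0, but 2 were past 2-fold, Tpm1 (1.15) and Itgav (1.20), with a median of 0.40. The filament protein gene Vim was at 12108 against 8205 CPM (0.56, 0.53 to 0.59) and Actb at 9410 against 6294 CPM (0.58, 0.54 to 0.62).

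The receptors for the products of the ranking genes were mostly lower in tip-like cells. Of 10 receptor genes 2 had a ratio above 0, 1 was past 2-fold higher and 2 lower, with a median of -0.30. Aplnr, the receptor of apelin (chromosome 2, 85136225 to 85139923), was at 23.9 CPM in tip-like, 88.2 CPM in intermediate, 249 CPM in low-ranked cells and 172 CPM in NECs. It was seen in 10 of 57 tip-like and 68 of 115 low-ranked cells, with a log2 ratio of -3.38 (-4.00 to -2.83). In tip-like cells 59.3% of its UMIs came from 1 cell, and the ratio was -4.65 without it. Ramp3, an accessory protein of the adrenomedullin receptor, was given above, and its partner Calcrl was at 68.1 against 84.5 CPM (-0.31, -0.71 to 0.08). Flt1, which binds placental growth factor, was at 583 against 851 CPM (-0.54, -0.67 to -0.42), and Tek, the angiopoietin receptor, at 44.2 against 68.1 CPM (-0.62, -1.11 to -0.15). Ackr3, a scavenger receptor of Cxcl12 and adrenomedullin, was higher, at 141 against 31.2 CPM (2.17, 1.76 to 2.59). Flt1, Kdr, Nrp1 and Tek were all higher in NECs than in either group, at 1969, 1131, 1135 and 181 CPM.

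**Figure D4:**
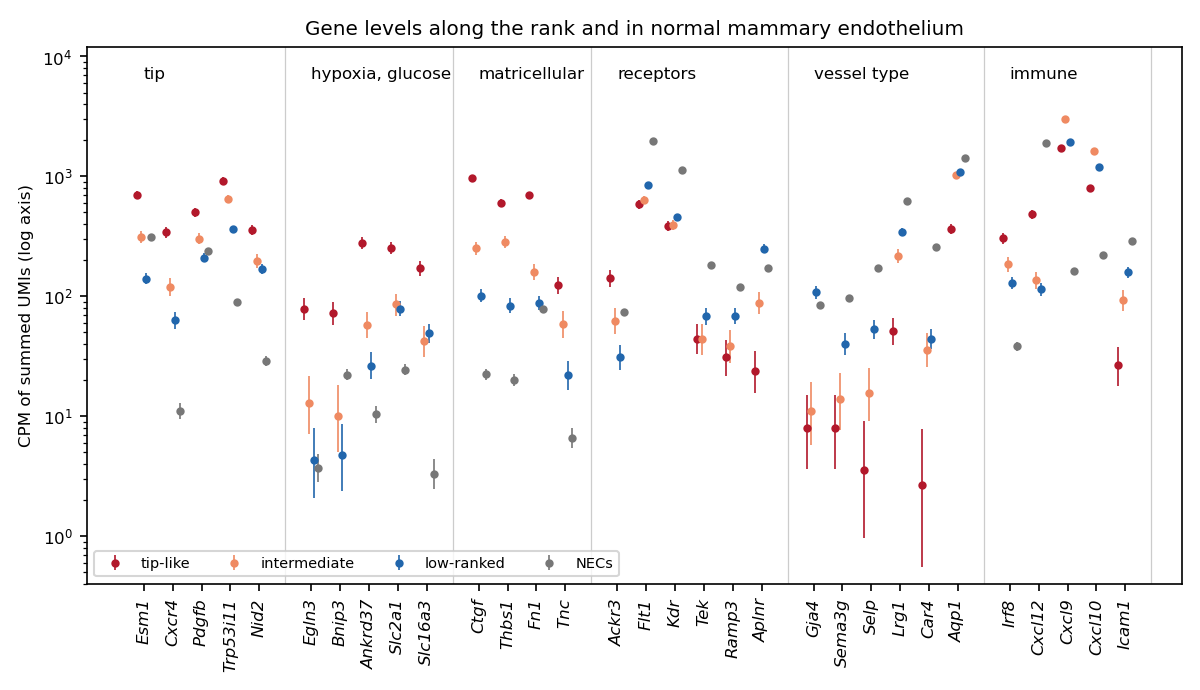
CPM of summed UMIs (log axis) of 31 genes in tip-like, intermediate and low-ranked TECs and in NECs, with 95% Poisson intervals for counting error. Intermediate cells lie between the other TECs for Esm1 (706, 313 and 140 CPM) and Aplnr (23.9, 88.2 and 249 CPM), and above both for Cxcl9.

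Most of the venous, arterial and capillary genes compared were lower in tip-like cells, but the summed arterial list was not. Of 8 venous genes 6 had a ratio below 0 and 2 were at 2-fold or more lower, with a median of -0.83, and the list summed to 1616 against 2848 CPM (-0.82, -0.89 to -0.74). In single cells 40 of 57 tip-like cells lay below the first quartile of low-ranked cells for this sum. Plvap, given above with a ratio of -0.82, is on this list and made up most of its sum in both groups. The summed values therefore weigh this gene most, and the sum without it was not made. Selp, the P-selectin of venules (chromosome 1, 164115264 to 164150026), was at 3.54 CPM on UMIs in 4 tip-like cells and at 53.3 CPM in 30 low-ranked cells (-3.91, -5.81 to -2.52). Lrg1 was at 51.3 against 344 CPM, with a UMI in 18 of 57 and 92 of 115 cells (-2.74, -3.15 to -2.36). Ackr1 and Sele had no UMI in tip-like cells and UMIs in 9 and 7 low-ranked cells. At 57 cells and 1130363 UMIs a count of 0 allows up to 2.65 CPM. Vwf did not differ beyond counting error, at 164 against 160 CPM (0.03, -0.23 to 0.29).

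Arterial genes were lower in 6 of 8, of which Gja4 (7.96 against 108 CPM, -3.77), Sema3g (-2.34), Hey1 (-2.31) and Fbln5 (-1.68) were past 2-fold, and the median was -1.20. Gja4, a connexin of arterial ECs, was concentrated in few cells, with UMIs in 3 tip-like and 25 low-ranked cells and 77.8% of the tip-like UMIs in 1 cell. Edn1, the vasoconstrictor endothelin, was higher, at 144 against 37.7 CPM (1.93, 1.55 to 2.33). With the abundant Tm4sf1 (0.27) it brought the summed arterial list to a ratio of 0.03, so that the sum and the median of this list differed. Of 12 capillary genes 10 had a ratio below 0, 3 were past 2-fold lower and 1 higher, with a median of -0.48 and a summed ratio of -0.35 (-0.39 to -0.31). Car4, a carbonic anhydrase, was at 2.65 against 44.2 CPM (-4.06, -6.36 to -2.47), Aqp1, a water channel, at 362 against 1085 CPM (-1.58, -1.74 to -1.43) and Cd300lg at 127 against 257 CPM (-1.01), past 2-fold in 7 of 16 alternatives. Fabp4, a fatty acid carrier, was at 1415 against 2479 CPM (-0.81, -0.89 to -0.73), both far below NECs at 20060 CPM. The higher gene was Rgcc (1.02), past 2-fold in 6 of 16 alternatives. Slco2a1, a prostaglandin transporter, led the lower side, at 5.31 against 92.3 CPM (-4.12, -5.58 to -2.97).

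Id1 and Id3, inhibitors of differentiation that respond to BMP signals, were lower, and Id2 was at 26.5 against 29.0 CPM (-0.13, -0.80 to 0.51). Id1 was at 143 against 391 CPM (-1.45, -1.70 to -1.21) and Id3 at 280 against 651 CPM (-1.22, -1.39 to -1.04). Id3 had a UMI in 109 of 115 low-ranked and 37 of 57 tip-like cells. The ligand gene Bmp2 was higher, at 421 against 58.1 CPM (2.86, 2.58 to 3.15), as was the signal carrier Smad1, at 327 against 143 CPM (1.19, 0.97 to 1.41). Of 12 genes of this pathway list 1 was past 2-fold higher and 3 lower, against 3.46% and 2.76% of all genes compared. Bmp2 was not on the list, and besides Id1 and Id3 the lower gene was Ltbp4 (-1.50). The median log2 ratio of the list was -0.17 and its summed ratio -0.33 (-0.39 to -0.26). In the Notch list 8 of 10 genes had a ratio above 0, with a median of 0.25 and a summed ratio of 0.28 (0.18 to 0.37). Hey1, lower in tip-like cells, was the 1 gene past 2-fold, while Notch4 was at 159 against 86.7 CPM (0.88, 0.58 to 1.17). Of 15 guidance genes Epha2 was past 2-fold higher (1.21) and Sema3g and Sema6a (-1.76) lower, and the median was 0.24.

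The study's interest lay in interferon response genes, T cell chemokines and adhesion molecules in ECs, and in their relation to proliferation. Interferon genes as a group were alike in tip-like and low-ranked cells. Of 30 genes 1 was past 2-fold, the median log2 ratio was 0.01 and the list summed to 17790 against 19209 CPM (-0.11, -0.13 to -0.09), with intermediate cells higher at 22662 CPM. The sign of this sum turned when cells were ranked without Apln (0.04), and it was -0.51 for the top 10% of cells. The single gene was Irf8, a transcription factor (chromosome 8, 120736358 to 120756694). It had a median of 223 CPM in tip-like, 146 CPM in intermediate and 60.2 CPM in low-ranked cells, with a UMI in 49 of 57 and 75 of 115 of the first and last. Its sum was 306 against 129 CPM (1.24, 1.02 to 1.47) and 38.2 CPM in NECs. Isg15 was at 1273 against 1415 CPM (-0.15, -0.24 to -0.06) and Ifit2 at 195 against 116 CPM (0.74, 0.48 to 1.01).

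Cxcl9, a chemokine of CXCR3+ T cells, was seen in 49 of 57 tip-like cells (86.0%) and 99 of 115 low-ranked cells (86.1%), at 1741 against 1944 CPM (-0.16, -0.24 to -0.08). In NECs it was at 162 CPM and seen in 16.6% of cells. Cxcl10 was at 795 against 1196 CPM, but 1 tip-like cell held 49.5% of its UMIs and the ratio went from -0.59 to -1.54 without it. Cxcl12 (chromosome 6, 117168535 to 117181367), the ligand of Cxcr4, was higher, at 483 against 115 CPM (2.07, 1.86 to 2.29), though both were below NECs at 1896 CPM. Icam1, which binds leukocytes, was at 26.5 against 158 CPM, with a UMI in 10 of 57 and 67 of 115 cells (-2.58, -3.16 to -2.04), and at 286 CPM in NECs. Vcam1 was at 233 against 249 CPM (-0.10, -0.32 to 0.11). Of 13 adhesion and chemokine genes compared, 2 were past 2-fold higher and 2 lower, with a median log2 ratio of -0.10. The list summed to 5665 against 5885 CPM (-0.05, -0.10 to -0.01). No MHC class I or class II gene was past 2-fold, with summed log2 ratios of 0.20 (0.18 to 0.22) and 0.39 (0.28 to 0.50).

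S phase genes were lower in tip-like cells. All 16 that could be compared had a ratio below 0 and 11 were at 2-fold or more, with a median of -1.13, and the list summed to 502 CPM in tip-like, 959 CPM in intermediate and 1063 CPM in low-ranked cells (-1.08, -1.22 to -0.95). The per-cell median was 301 against 397 CPM, and 24 of 57 tip-like cells lay above the latter. The upper quartile was 587 against 967 CPM, while the highest cell had 1474 CPM in the tip-like and 5269 CPM in the low-ranked group. Rrm2 (-1.88), Uhrf1 (-1.80) and Mcm5 (-1.73) were the lowest, and of the 11 genes only Mcm5 stayed past 2-fold in all 16 alternatives. Dnmt1, the maintenance DNA methyltransferase, was at 16.8 against 39.9 CPM (-1.25, -2.04 to -0.52) and 28.8 CPM in NECs, and was seen in 14 of 57 and 40 of 115 TECs. The Dnmt1 ratio ran from -1.69 with a mitochondrial limit of 5% to -0.26 for means over cells. It was under 2-fold in 4 of 16 alternatives, the others being ranks on thinned counts, the top 10% of cells and the removal of cells with a UMI of Top2a or Mki67. At equal depth its expected shares were 4.15% and 5.31%. The mitosis list differed less, with 3 of 18 genes past 2-fold, none of them in every alternative, and a sum of 1577 against 2126 CPM (-0.43, -0.51 to -0.35), which was -0.02 without the 5% of cells with the most UMIs. A UMI of Top2a or Mki67 was present in 18 of 57 tip-like cells (31.6%, 19.9 to 45.2%) and 32 of 115 low-ranked cells (27.8%, 19.9 to 37.0%), against 2.22% of NECs. The order of these shares turned at equal depth, to 8.35% and 13.4%, so none is read from them.

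**Figure D5:**
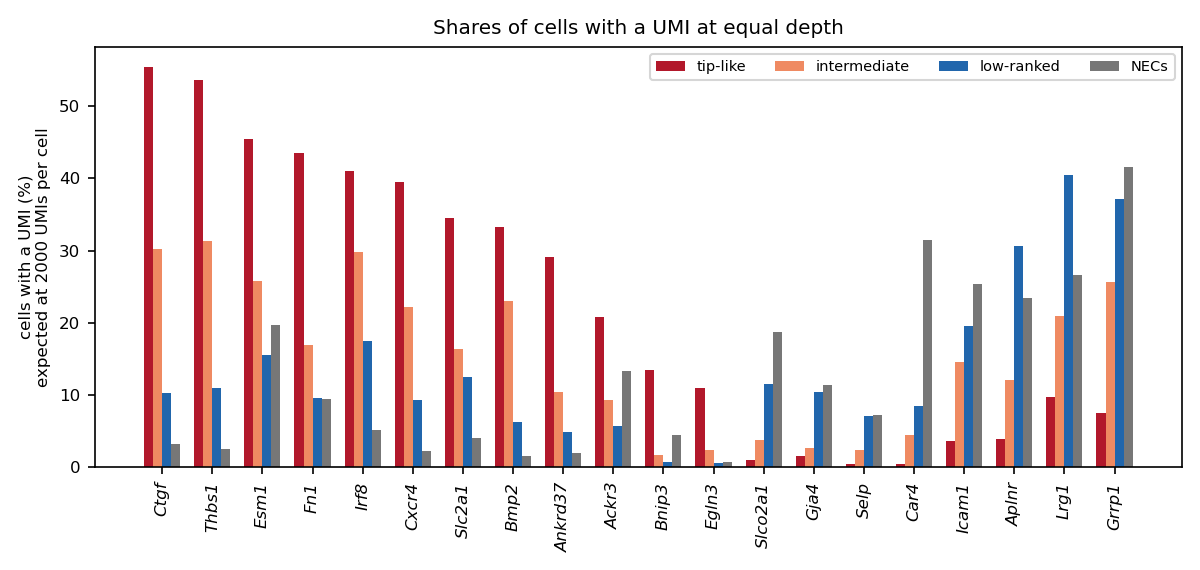
Share of cells with a UMI (%, bars from 0) expected if every cell held 2000 UMIs, for 20 genes in tip-like, intermediate and low-ranked TECs and in NECs. Ctgf is expected in 55.4% of tip-like and 10.2% of low-ranked cells, Egln3 in 10.99% and 0.528%, and Aplnr in 3.91% and 30.7%.

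Expected shares at equal depth followed the levels for the leading genes. They were 13.4% in tip-like, 1.73% in intermediate and 0.775% in low-ranked cells for Bnip3, 29.1%, 10.4% and 4.81% for Ankrd37, and 39.5%, 22.2% and 9.36% for Cxcr4. For Irf8 they were 41.0%, 29.8% and 17.5%, against 5.14% in NECs. On the lower side they were 3.61%, 14.5% and 19.6% for Icam1, and 0.479%, 2.39% and 7.02% for Selp. For each of these 6 genes, named for their difference between the outer groups, the intermediate cells lay between those groups. The library held no cells known to lack these genes, and free RNA was not measured.

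Tip-like cells can also be grouped by the ranking gene that contributed most to their sum. The 6 cells in which Adm contributed most to the rule had 6099 CPM of the hypoxia list (Poisson interval for counting error 5737 to 6478). They had 17952 CPM of the glycolysis list. The 18 cells led by Pgf had 3736 and 11201 CPM, the 13 led by Angpt2 had 2472 and 9274 CPM, and the 20 led by Apln had 2229 and 10325 CPM. The other tip markers had another order. They were highest in the cells led by Angpt2, at 18815 CPM, and lay at 11373, 11407 and 9798 CPM in those led by Apln, Pgf and Adm. These are sums over few cells of 1 library, grouped by values that the rule used, and are given as a description. Low oxygen induces Adm, Angpt2 and Apln themselves, so the hypoxia sums are not independent of this grouping.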

How the data were processed

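The deposited tables hold UMI counts per gene and cell, 1 table per library, which the authors made from 10x Genomics libraries; per the labels, Cell Ranger, Seurat and build mm10 were named in the submitters' processing notes, and the Cell Ranger version and gene annotation were not given in the sources used here. No further processing of the tables was found, and doublets were not called again.

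Cells were kept with 200 or more genes, under 10% mitochondrial UMIs, no UMI of Ptprc, Myh11, Epcam or Cspg4, 2000 or more UMIs, and 2 or more UMIs of Cdh5 and Pecam1 that outnumbered those of Rhox5, Hmga2 and Krt8. Ties in rank went to the cell with more UMIs. UMIs were summed per group, with exact conditional binomial intervals on ratios, Poisson intervals on levels and Clopper-Pearson intervals on shares (95%). Genes at 20 CPM or more over all ranked cells were compared. A count of 0 was taken to allow 3 counts. Shares at equal depth are hypergeometric expectations at 2000 UMIs. With 1 library per condition no model across samples could be fitted, and with PCR-amplified libraries intervals cover counting error only.

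Named genes were those of 32 lists, plus the 15 with the highest and 15 with the lowest ratios that had a UMI in 25% or more of the cells of the higher group. The members and the lists were chosen with earlier results of these data known. Gene positions are from GENCODE M21 (GRCm38), which held 98.9% of the symbols. The scripts, run with Python 3.11.15, numpy 2.4.6, scipy 1.17.1, pandas 2.3.3 and matplotlib 3.10.9, were tested on simulated data. The values of 1 listed gene are not reported here.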

Additional observations from a re-analysis of the deposited data

How the results depend on the processing

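All comparisons rest on 57 cells of 1 TEC library of pooled tumors, so the spread between tumors is not known, and weak genes rest on few UMIs. No paired analysis was possible because each condition had 1 library. Of 97 named genes under 16 alternatives each, 57 stayed past 2-fold in every alternative and 1 changed sign, Spp1, at -0.36 when cells were ranked without Pgf. Besides the genes given with their counts above, Lamb1 was under 2-fold in 4 alternatives, and Pfkfb3, Itgav, Pgk1, Adam15, Lama4, Pfkl, Smad1, Irf8, Plau, Tpm1, Fbln5, Fam162a, Serpina3g and Mthfd2 were in 1 to 3. Cldn4 had no UMI in low-ranked cells and gave no finite ratio. The cause of the shifts below was not tested.

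Comparing genes at 5 CPM or more gave 480 higher and 535 lower genes, with more genes compared, and the top 10% of cells (23 cells) gave 305 and 285. For the top 10% the summed log2 ratios were 0.50 for tip markers, 1.505 for hypoxia, 0.90 for glycolysis, 0.17 for basement membrane, -0.51 for interferon and -0.61 for mitosis genes. Ranked without Apln, tip markers were at 0.50, interferon at 0.044 and mitosis at -0.78. Without Pgf, tip markers were at 0.36, hypoxia at 1.02, interferon at -0.15 and mitosis at -0.29. Without Adm, mitosis was at -0.35. Without Angpt2, tip markers were at 0.21, hypoxia at 1.17, glycolysis at 0.77, basement membrane at 0.12 and interferon at -0.14. Ranked on thinned counts, interferon was at -0.21 and mitosis at -0.29.

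A mitochondrial limit of 5% gave 0.28 for tip markers, 0.091 for basement membrane, -0.15 for interferon and -0.52 for mitosis. A floor of 5000 UMIs gave -0.34 for mitosis, and a floor of 10000 UMIs gave 0.16 for basement membrane. Without the 5% of cells with the most UMIs, tip markers were at 0.31, glycolysis at 0.74, basement membrane at 0.17, interferon at -0.15 and mitosis at -0.020. Means over cells gave 0.74 for glycolysis and 0.34 for basement membrane. Against all other ranked cells, tip markers were at 0.37, glycolysis at 0.63, interferon at -0.19 and mitosis at -0.34. Without cells with a UMI of Top2a or Mki67, hypoxia was at 0.93, glycolysis at 0.58 and basement membrane at 0.35. Without cells with a UMI of Rhox5, Hmga2 or Krt8, interferon was at -0.14, and with no removal by Ptprc, Myh11, Epcam and Cspg4 tip markers were at 0.45.

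Alternatives chosen after seeing the data left out the tip-like cell with the most UMIs of a list or gene, or 1 gene. Without that cell tip markers were at 0.38, glycolysis at 0.65 and basement membrane at 0.19, and basement membrane was at 0.17 without Fn1. The S phase list stayed between -1.15 and -0.64 and the venous list between -1.07 and -0.69, both below 0 in all 16 alternatives. The S phase sum was at -0.64 without cells with a UMI of Top2a or Mki67. Ranked on thinned counts, it was at -0.66, against -1.08 in the main setting.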

Other observations

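Cav1 and Cav2, but not the cavins, were past 2-fold higher in tip-like cells. Cav1, the coat protein of caveolae, was at 1504 CPM in tip-like, 913 CPM in intermediate and 588 CPM in low-ranked cells (log2 ratio of tip-like over low-ranked 1.35, 1.25 to 1.46), with 1094 CPM in NECs. Its partner Cav2 was at 479 against 218 CPM (1.13, 0.95 to 1.31), past 2-fold in 12 of 16 alternatives. The caveola coat genes Cavin1, Cavin2 and Cavin3 had ratios of 0.69, -0.19 and 0.14. Jam2, a junction adhesion molecule, was lower, at 73.4 against 185 CPM (-1.33, -1.69 to -0.99). Of the 15 genes of junctions, fenestrae and caveolae compared, these 3 were past 2-fold and the median was 0.14. Among 7 serine and one-carbon genes 6 had a ratio above 0 and 1 was past 2-fold, Mthfd2, a mitochondrial folate enzyme, at 65.5 against 24.3 CPM (1.43), with 31.1% of its tip-like UMIs in 1 cell.

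The next genes were chosen after their values were seen. Nts, which encodes neurotensin, was at 405 CPM in low-ranked cells on UMIs in 21 of them, 30.6% in 1 cell, and at 8.85 CPM in tip-like cells on UMIs in 2. The replication-dependent histone gene Hist1h2ap was at 7.08 CPM in tip-like, 80.8 CPM in intermediate and 157 CPM in low-ranked cells (-4.47, -5.69 to -3.48). Nox4, an oxidase that makes hydrogen peroxide, was at 122 against 23.4 CPM, with a UMI in 36 of 57 and 21 of 115 cells (2.38, 1.92 to 2.86), and at 0.909 CPM in NECs.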
